A study of Rattus norvegicus with 20 samples.

Results

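Transcript usage, the way a gene's RNA is divided among its annotated transcripts, was compared in rat lung between animals that had undergone caecal ligation and puncture and animals that had undergone a sham operation. The genes examined were those with 2 or more transcripts in the deposited transcript table, 11869 of 19060 genes, which hold 54056 of the 61247 transcripts. Just inside that limit were 3678 genes with exactly 2 transcripts, and just outside it were 7191 genes with 1 transcript. After a filter on low counts, 9026 genes with 32609 transcripts could be tested.

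The RNA came from lungs of 20 rats in 4 groups of 5. In the CLP group the caecum was tied off and punctured, which lets gut bacteria into the abdomen and serves as a model of sepsis and acute respiratory distress syndrome, and the CLP+VNS group had the same operation with electrical stimulation of the right cervical vagus nerve. The Sham group had a laparotomy in which the caecum was handled but left intact, and the Sham+VNS group had that operation with the nerve stimulation, so all 4 groups share the opened abdomen. CLP-operated means the CLP+VNS and CLP libraries together (n = 10), written below also as after CLP, and sham-operated means the Sham+VNS and Sham libraries together (n = 10), written also as after sham. The labels give no strain, age, sex or time after surgery, and the replicate numbers are not stated to pair animals.

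One gene can give rise to several transcripts through alternative promoters, alternative splicing and alternative ends. SR proteins (serine- and arginine-rich splicing factors, phosphorylated by the Clk kinases) mostly promote the inclusion of exons, and hnRNP proteins (which coat nascent RNA) often oppose it. Transcripts of one gene can encode proteins that differ in place or activity, such as a membrane receptor and its soluble form, and leukocytes are known to switch transcripts when they are activated. A share below is the percentage of a gene's estimated counts that was assigned to one transcript, and a share change is the difference between CLP-operated and sham-operated means in percentage points.

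Library totals ran from 13729654 to 14453188 estimated counts, so counts of one transcript can be set side by side between libraries. The lung held markers of many cell types, and some moved with the operation. All 12 neutrophil markers were higher, with a summed level of 2122 to 6378 CPM in CLP-operated libraries against 359 to 1111 CPM in sham-operated libraries. All 7 T cell markers measured were lower (31.9 to 53.4 CPM after CLP against 55.9 to 97.9 CPM after sham), as were 4 of 5 alveolar type 1 markers (2885 to 4409 CPM after CLP against 3977 to 6112 CPM after sham). Of 10 monocyte and macrophage markers 5 were higher and 1 lower, and of 8 endothelial markers 1 was higher and 3 lower. Of 7 alveolar type 2 markers 2 were higher. Lower were 3 of 5 B cell, 2 of 5 smooth muscle, 2 of 3 adipose and 1 of 4 cardiac markers tested. Over all genes tested at gene level, 23.7% were higher and 24.6% lower. No marker in these lists was at 0 in every library, and the markers of adipose tissue reached 1450 CPM in Sham replicate 1, where the cardiac markers were also highest, at 140 CPM. In bulk tissue fewer cells of a type and less RNA per cell cannot be told apart, and the part of cell make-up in the usage changes below was not tested.

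Transcript usage changed in 185 of the 9026 genes tested, which is 2.05% (edgeR quasi-likelihood fit with a test of each transcript against its gene's mean change, adjusted p under 0.05). Other tests on the same libraries called between 63 genes (edgeR with trended dispersions) and 461 (DESeq2), and 601 genes (6.66%) had an unadjusted p under 0.05. By contrast the total count of a gene changed in 48.3% of all genes tested at gene level (23.7% higher and 24.6% lower), and in 51.6% of the genes tested for usage. Single transcripts passed in 230 cases (0.705% of transcripts tested), 117 of them with a higher share in CLP-operated lungs (0.359%) and 113 with a lower share (0.347%). Of these, 208 lay in the 185 genes. A called transcript moved by 10 points or more in 73 genes (0.809%) and by 20 points or more in 22. At the 10-point limit stood Il1rl1 and Bcl2l2, both with a change of 10.29 points, and just below it Aak1, with -9.828 points. The median gene among the 185 had a largest share change of 8.92 points, against 3.00 points over all genes tested. The 185 were called on usage in these same libraries, so a larger median was partly set in advance.

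Most called changes were partial shifts between transcripts that both arms used. The transcript with the highest mean share differed between the arms in 34 of the 185 genes (18.4%), against 586 of 9026 (6.49%). That contrast too was partly set in advance by the choice of called genes. A called transcript had an estimated count of 0 in every CLP-operated library in 14 cases and in every sham-operated library in 8. In 29 genes no called transcript moved by as much as 2 points. Shares of 65 transcripts in 48 genes did not overlap between the 10 CLP-operated and the 10 sham-operated libraries, 0.199% of transcripts and 0.532% of genes tested. Of the 208 called transcripts, 41 were among these.

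The genes with changed usage were often genes whose total also changed. Of the 185, 77 had a higher and 54 a lower total in CLP-operated lungs, together 70.8% against the 51.6% of all genes tested for usage. Where the total was higher, 51 called transcripts had a lower share, and 16 of those still had a higher mean CPM. Where the total was lower, 39 called transcripts had a higher share, and 26 of those also had a higher mean CPM. The called transcripts resembled the transcripts tested in accession type and assembly listing. Of them, 49 of 208 (23.6%) carry a curated NM accession against 21.6% of all tested. For the newer assembly GRCr8, 150 of 208 (72.1%) are listed against 73.7%. The called genes differed in transcript number: 30 of 185 (16.2%) had exactly 2 tested transcripts, against 39.2% of all genes tested. The part of transcript number in the contrasts above was not tested. Effective length, derived from counts and FPKM, had a median of 2570 nucleotides in transcripts with a higher share (n = 100) and 3306 nucleotides in those with a lower share (n = 96), against 2841 nucleotides over all tested.

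**Figure D1:**
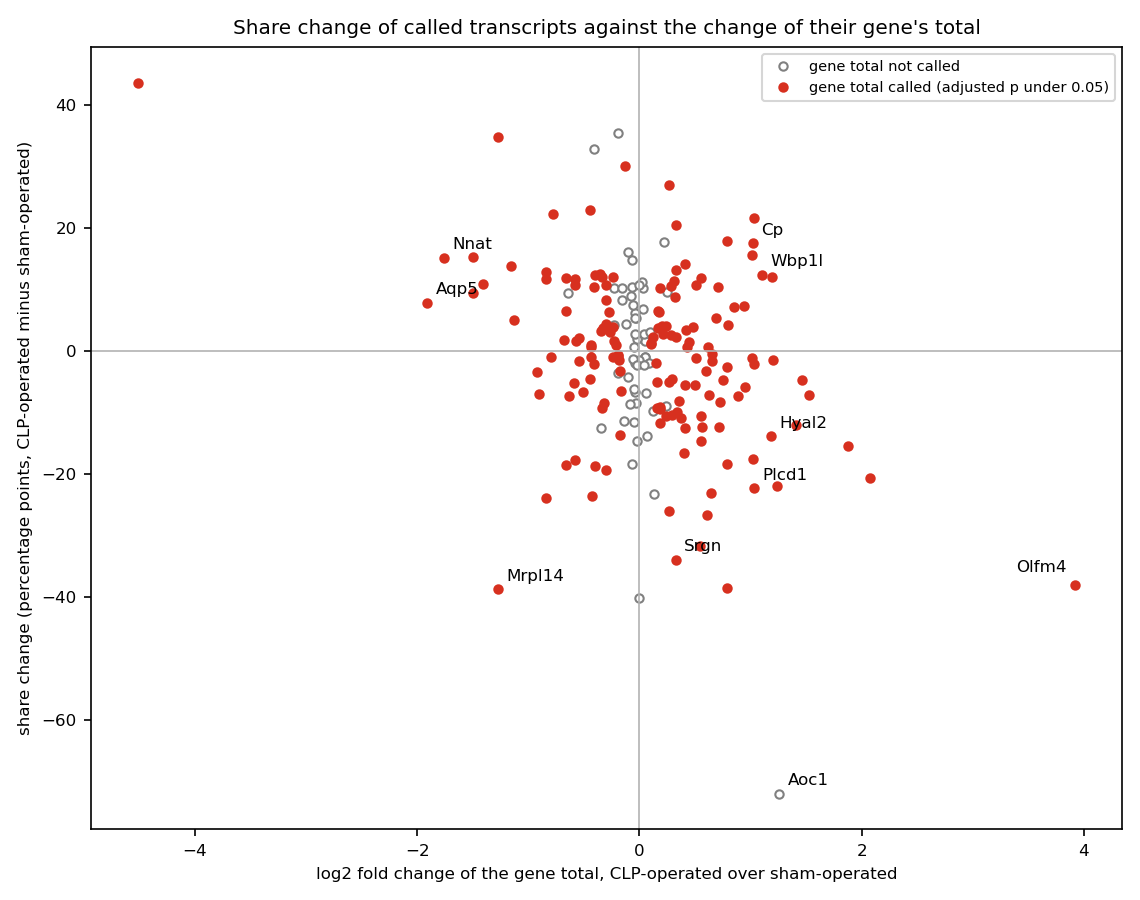
Each point is 1 of the 208 called transcripts; the x axis is the log2 fold change of its gene's total count (CLP-operated over sham-operated) and the y axis its share change in percentage points. Filled points are transcripts of genes whose total was called (adjusted p under 0.05), open points the others; Aoc1 lies lowest, at -71.9 points, and Olfm4 farthest right, at a log2 change of 3.92.

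The 20 genes with the widest shifts were drawn from 34 called genes with at least 100 counts in every group, shares that did not overlap and the same direction with and without stimulation. Non-overlap was a condition of that choice and is given below as a description. The widest shift was in Aoc1, the diamine oxidase that breaks down histamine and polyamines. Its transcript NM_022935 had a share of 0% in each of the 10 CLP-operated libraries, where 9977 counts of the gene in all allow a share of up to 0.0301% (3 counts over the arm, counting error only). In sham-operated libraries that share ranged from 5.74% to 100%, with a median of 80.9%, and the other transcript, XM_006236471, held the rest. The libraries with the lowest shares, at 5.74% and 29.4%, were both Sham libraries without stimulation. The share change was -71.9 points (edgeR adjusted p = 1.76e-23), a call that was lost with limma's diffSplice, another test of usage. The gene total, 998 ± 796 counts in CLP-operated and 389 ± 366 in sham-operated libraries (SD, n = 10 each), missed the threshold (log2 change 1.26, SE 0.52, adjusted p = 0.0522).

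Mrpl14, a protein of the large subunit of the mitochondrial ribosome, had a much lower share of 1 transcript after CLP. XM_006244512 made up 1.38% to 26.2% of the gene in CLP-operated libraries (median 17.2%), against 47.9% to 61.9% in sham-operated libraries (median 52.2%). In counts, it averaged 33.4 ± 16.8 in CLP-operated and 297 ± 79.0 in sham-operated libraries, whereas NM_001271131 averaged 167 ± 17.0 after CLP and 223 ± 28.6 after sham. The leading transcript was thus NM_001271131 after CLP, with a mean share of 76.6% against 41.8% after sham. The gene total fell by 1.27 on the log2 scale (SE 0.08, adjusted p = 4.6e-10).

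**Figure D2:**
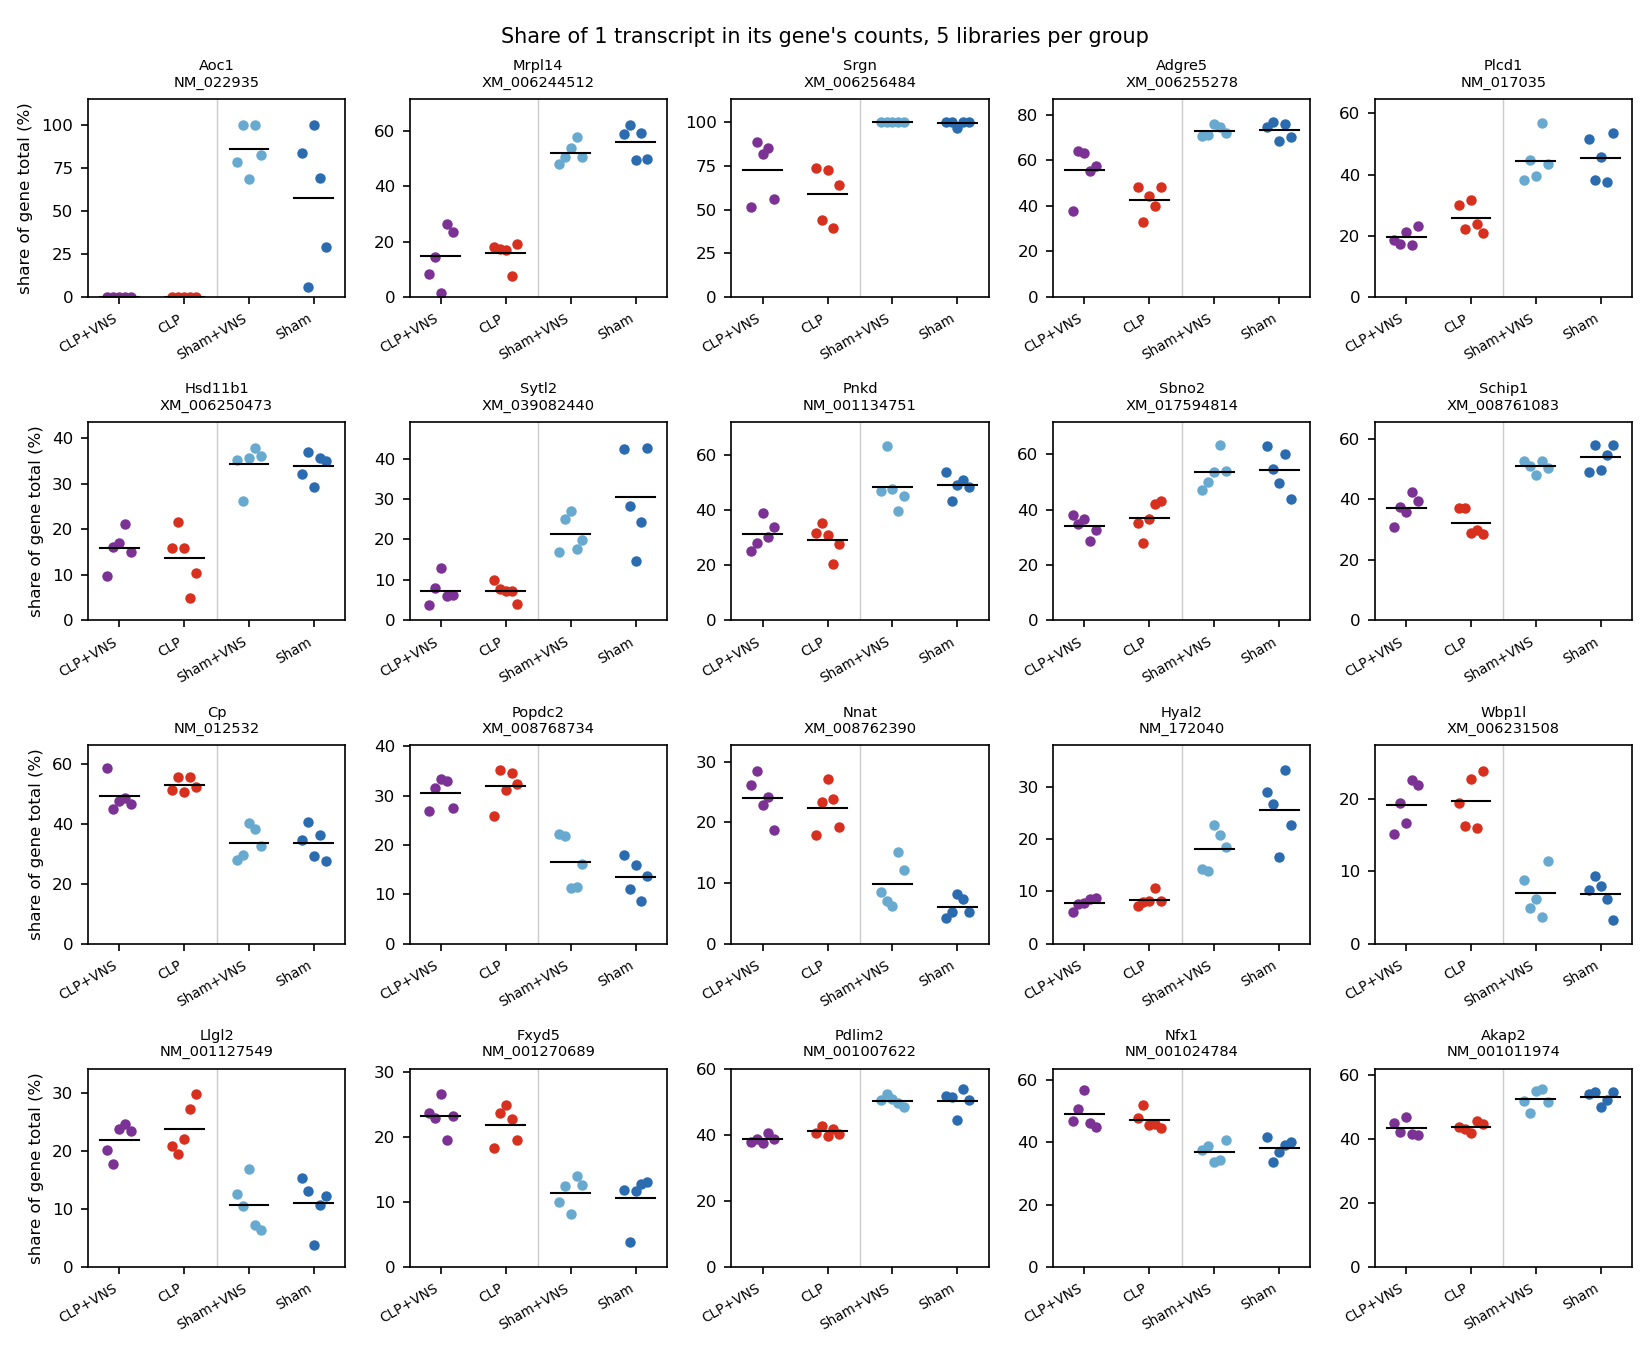
Share of 1 transcript in its gene's estimated counts (y axis, percent) for the 20 genes with the widest shifts; each point is a library, the bars are group means, and the groups run CLP+VNS, CLP, Sham+VNS and Sham. In each panel the 10 CLP-operated points lie wholly above or below the 10 sham-operated points, as the choice of these genes required, from 0% against 5.74% to 100% in Aoc1 to 41.2% to 46.9% against 48.2% to 55.7% in Akap2.

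Srgn encodes serglycin, the proteoglycan that packs the granules of leukocytes. Its transcript XM_006256484 held 39.7% to 88.6% of the gene in CLP-operated libraries (median 68.5%), against 96.4% to 100% in sham-operated libraries (median 100%). The gene's other transcripts had counts mainly after CLP. NM_020074 had 513 ± 248 counts in CLP-operated and 6.5 ± 20.6 counts in sham-operated libraries, where 65 counts in Sham replicate 3 were the whole of it. XM_039099046 had counts in 6 of 10 CLP-operated libraries, up to 1257 in CLP replicate 3, and in 0 of 10 sham-operated ones, which allows a share of up to 0.0152%. Counts of the main transcript itself averaged 1558 ± 356 in CLP-operated and 1972 ± 255 in sham-operated libraries, so the rise of the gene total (log2 change 0.33, SE 0.09, adjusted p = 0.00607) was carried by the others. The usage call for XM_006256484 was lost with trended dispersions and with limma's diffSplice.

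Adgre5, the adhesion receptor CD97 of leukocytes, fell in total by 0.84 on the log2 scale (SE 0.10, adjusted p = 1.53e-06). XM_006255278 held 33.0% to 64.2% in CLP-operated libraries (median 48.2%), against 68.4% to 76.9% in sham-operated libraries (median 73.4%). Its counts averaged 1617 ± 524 in CLP-operated and 4414 ± 720 in sham-operated libraries, while XM_006255281 averaged 759 ± 230 after CLP against 700 ± 134 after sham, and XM_006255279 averaged 727 ± 308 after CLP against 537 ± 144 after sham. The fall of the gene therefore lay in 1 of its main transcripts. The call for XM_006255278 (adjusted p = 0.0251) was lost without CLP replicate 3, 4 or 5 and without Sham replicate 1 or 2, with adjusted p up to 0.121. The share change was -17.3 points under stimulation and -30.5 points without it, a difference that was not called (adjusted p = 1). In CLP-operated libraries the neutrophil markers were higher and the T cell markers lower. The part of leukocyte make-up in these shifts was not tested.

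Sytl2, a Rab27 effector that docks secretory vesicles at the membrane, had 9 tested transcripts. XM_039082440 held 3.68% to 12.8% in CLP-operated libraries (median 7.27%), against 14.7% to 42.6% in sham-operated libraries (median 24.7%). After CLP the leading transcript was XM_039082431, at 31.4% ± 4.01 against 19.1% ± 8.49 after sham. Cp encodes ceruloplasmin, the copper-carrying ferroxidase of the acute-phase response, which is known in a secreted and a membrane-anchored form. Its total rose by 1.02 on the log2 scale (SE 0.06, adjusted p = 1.61e-10). NM_012532 held 45.1% to 58.8% in CLP-operated libraries (median 51.1%), against 27.6% to 40.8% in sham-operated libraries (median 33.6%). Counts of NM_012532 averaged 2802 ± 366 after CLP and 935 ± 165 after sham, and those of its partner NM_001270961 averaged 2660 ± 397 after CLP and 1836 ± 239 after sham, so both were higher after CLP and the first by more. The files do not say which of them encodes which form.

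Among signalling genes, Plcd1, a phospholipase C that cleaves membrane phosphoinositides, rose in total (log2 change 1.03, SE 0.13, adjusted p = 2.29e-06) without more of its main sham transcript. NM_017035 had 257 ± 38.8 counts in CLP-operated and 260 ± 63.7 in sham-operated libraries, while XM_039080826 had 403 ± 108 after CLP and 79.7 ± 60.3 after sham. The share of NM_017035 accordingly ran from 17.1% to 31.7% after CLP (median 21.8%), against 37.4% to 56.8% after sham (median 44.0%). Hyal2, the membrane-anchored hyaluronidase, rose in total (log2 change 1.19, SE 0.13, adjusted p = 2.46e-07). Its minor transcript NM_172040 averaged 406 ± 81.5 counts in CLP-operated and 471 ± 86.0 in sham-operated libraries, and its main transcript XM_006243855 averaged 4677 ± 934 after CLP and 1807 ± 620 after sham. The share of NM_172040 was 6.06% to 10.7% after CLP (median 8.07%), against 13.9% to 33.2% after sham (median 21.8%; adjusted p = 9.71e-23).

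Wbp1l, a WW-domain-binding membrane protein, had more counts of both its main transcripts. XM_006231508 averaged 659 ± 82.6 counts in CLP-operated and 115 ± 49.3 in sham-operated libraries, and NM_001127484 averaged 2495 ± 268 after CLP and 1396 ± 104 after sham. The share of the first was 15.1% to 23.9% after CLP (median 19.4%), against 3.25% to 11.3% after sham (median 6.82%; adjusted p = 6.78e-08). Sbno2, a transcriptional co-regulator that acts downstream of interleukin-10 in macrophages, changed its leading transcript. XM_017594814 held 28.0% to 43.2% in CLP-operated libraries (median 35.9%), against 43.8% to 63.4% in sham-operated libraries (median 53.9%), and XM_039078981 held 49.6% ± 6.09 after CLP against 31.6% ± 7.39 after sham.

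**Figure D3:**
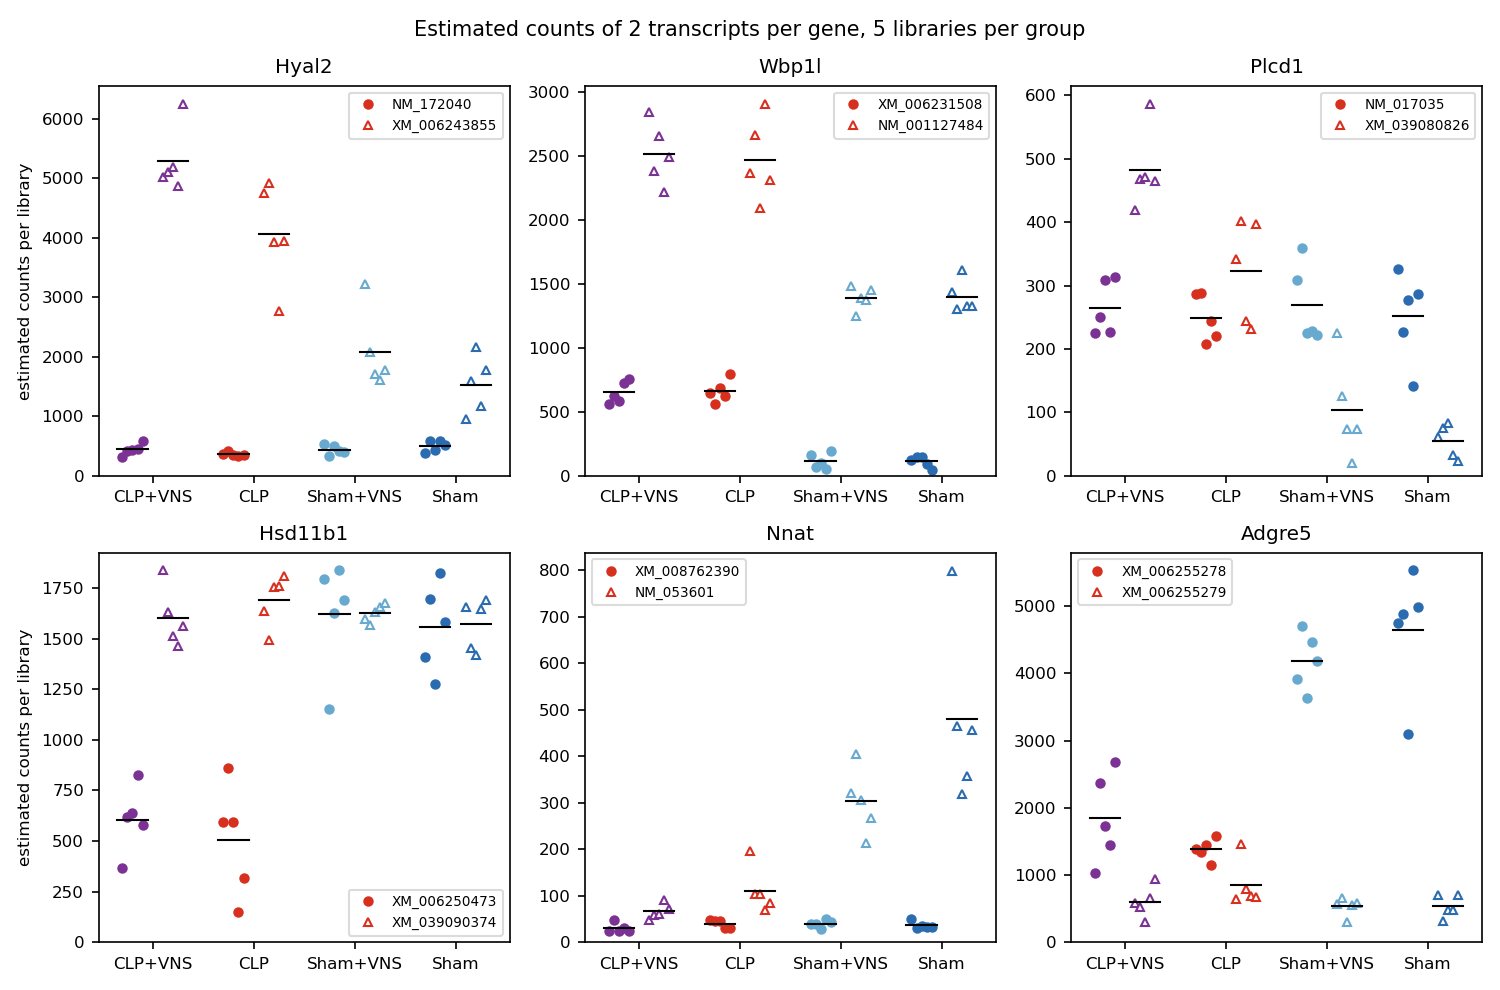
Estimated counts per library (y axis) of 2 transcripts of each of 6 genes; filled circles are the transcript whose share is described first, open triangles another transcript of the gene, bars are means of 5 libraries, and the groups run CLP+VNS, CLP, Sham+VNS and Sham. In Hyal2 and Plcd1 the circles differ less between the arms than the triangles, which are higher after CLP (4677 against 1807 counts after sham in Hyal2). The Hyal2 circles run from 331 to 426 counts in CLP and 390 to 585 in Sham libraries. Under stimulation they run from 324 to 594 counts in CLP+VNS and 336 to 542 in Sham+VNS libraries. In Hsd11b1 and Adgre5 the circles are lower after CLP (555 against 1588 counts after sham in Hsd11b1).

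Hsd11b1, the enzyme that regenerates active glucocorticoid inside cells, differed mainly in a single transcript. XM_006250473 averaged 555 ± 220 counts in CLP-operated and 1588 ± 236 in sham-operated libraries. The other main transcripts, XM_039090374 (1645 ± 139 counts after CLP and 1599 ± 92.8 after sham) and NM_017080 (1473 ± 238 counts after CLP and 1459 ± 185 after sham), stayed within 1 SD of each other between arms. The share of XM_006250473 was 4.81% to 21.6% after CLP (median 15.9%), against 26.2% to 37.8% after sham (median 35.4%; adjusted p = 4.08e-05), and on TPM, which is scaled for length, its share change was -24.4 points in place of -19.2. The gene total fell by 0.30 on the log2 scale (SE 0.04, adjusted p = 1.17e-05). Tsc22d3, the glucocorticoid-induced leucine zipper gene, rose in total (log2 change 1.21, SE 0.13, adjusted p = 2.86e-07) with its minor transcript XM_006234249 at 1.73% ± 0.318 after CLP and 3.19% ± 0.552 in sham-operated libraries.

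The remaining genes of the 20 shifted by 9.16 to 18.5 points. Nnat, an imprinted gene for a small membrane protein of the endoplasmic reticulum, fell in total by 1.76 on the log2 scale (SE 0.17, adjusted p = 8.73e-08), and XM_008762390 held 23.2% ± 3.61 in CLP-operated and 7.91% ± 3.36 in sham-operated libraries. That transcript's own counts were near each other, 35.7 ± 10.1 after CLP and 38.5 ± 7.72 in sham-operated libraries, while NM_053601 had 89.0 ± 41.9 after CLP and 391 ± 164 after sham. Popdc2, a membrane protein of muscle that binds cyclic AMP, missed the threshold in total (log2 change -0.10, SE 0.08, adjusted p = 0.301) and shifted towards XM_008768734, at 31.2% ± 3.30 after CLP against 15.0% ± 4.64 after sham. Popdc2 is thus a gene with a usage call and no call of its total.

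Pnkd, named for a human movement disorder, had a lower share of NM_001134751 (30.2% ± 5.24 after CLP against 48.7% ± 6.43 after sham). On TPM the same change was -5.59 in place of -18.5 points, because its partner NM_001134753, at an effective length of 311 nucleotides, takes a larger share once length is counted. Schip1, a binding partner of the tumour suppressor merlin, had a lower share of XM_008761083 (34.7% ± 4.88 after CLP against 52.4% ± 3.53 after sham). Shares were higher after CLP for Llgl2, a polarity gene of epithelia (NM_001127549, 22.9% ± 3.66 after CLP against 10.8% ± 4.07 after sham), for Fxyd5, a regulator of the sodium pump (NM_001270689, 22.5% ± 2.59 after CLP against 11.0% ± 3.02 after sham), and for Nfx1, a repressor that binds promoters of MHC class II genes (NM_001024784, 48.1% ± 3.87 after CLP against 37.6% ± 2.93 after sham). They were lower for Akap2, which anchors protein kinase A (NM_001011974, 43.7% ± 1.93 after CLP against 52.9% ± 2.49 after sham), and for Pdlim2, a ubiquitin ligase for the NF-kappaB subunit RelA (NM_001007622, 39.9% ± 1.70 after CLP against 50.5% ± 2.54 after sham). The call for Pdlim2 (adjusted p = 0.032) was lost in 13 of 20 fits without 1 library, with adjusted p up to 0.0791.

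**Figure D4:**
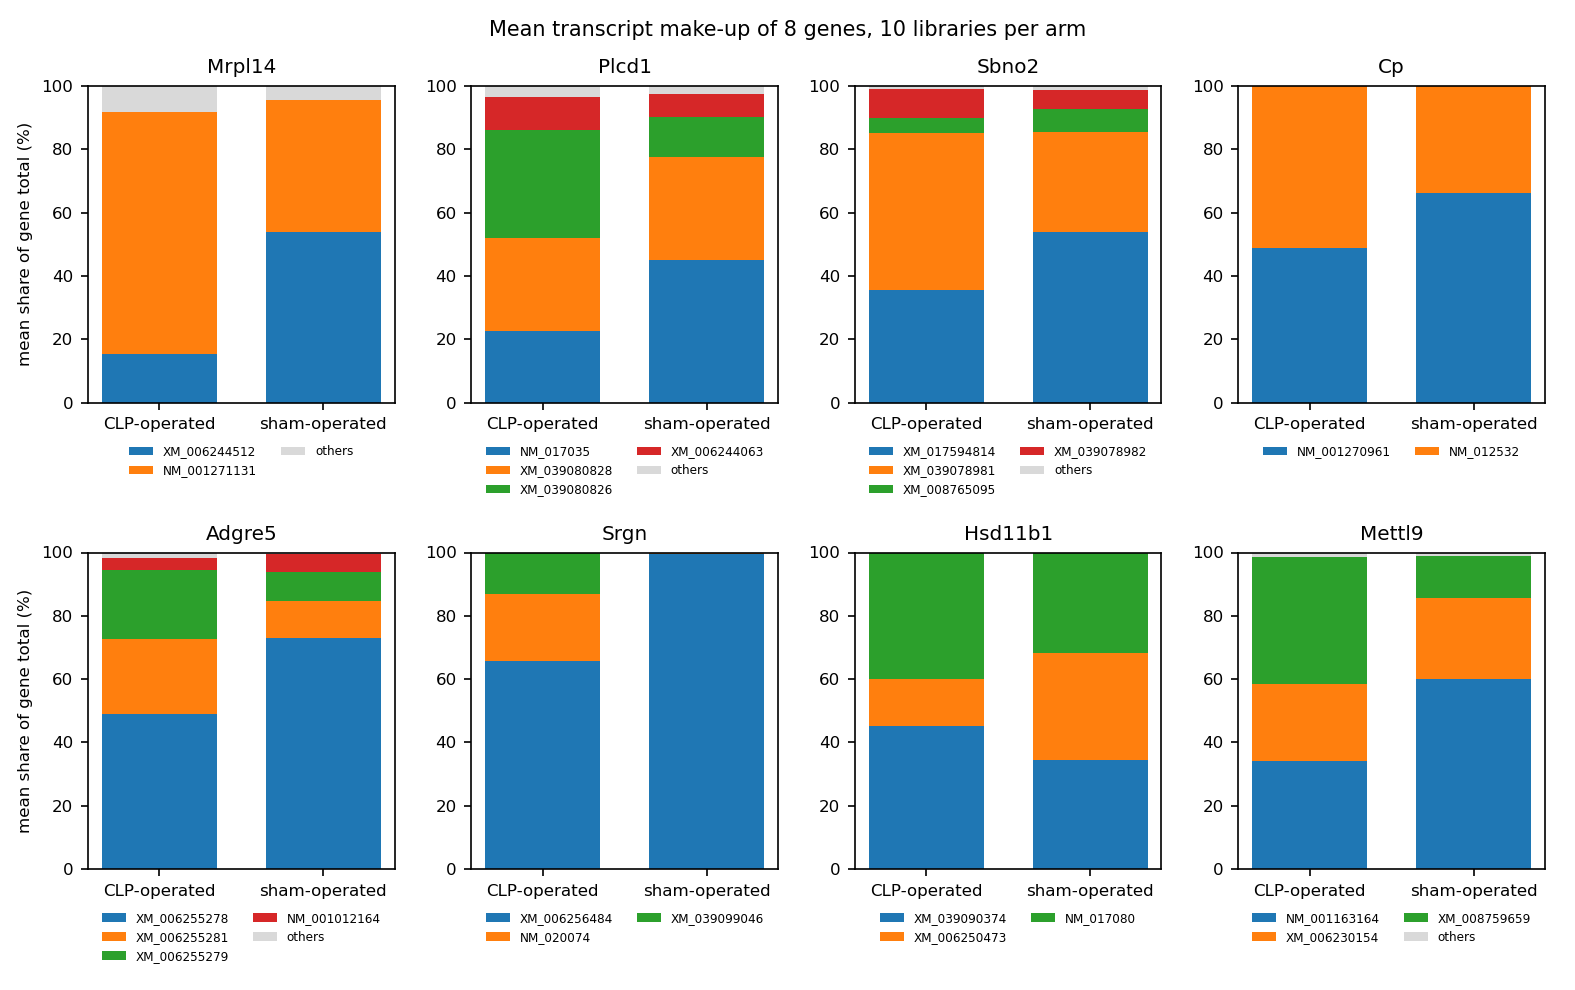
Mean transcript make-up of 8 genes (y axis, percent of the gene's estimated counts), with CLP-operated libraries in the left bar and sham-operated libraries in the right bar of each panel (n = 10 each); colours are transcripts, and grey sums those not named. The bottom segment of Srgn takes 65.8% after CLP against 99.6% after sham, and the leading transcript differs between the bars in Mrpl14, Plcd1, Sbno2, Cp and Mettl9.

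A change of leading transcript was found in 31 called genes with at least 100 counts in every group, and the 12 with the widest shifts include Aoc1, Mrpl14, Plcd1, Sytl2, Pnkd and Sbno2, described above. In the other 6 the libraries of the arms overlapped. Ms4a6b, a membrane protein of leukocytes, had 3.07% to 33.5% of XM_006231110 in CLP-operated libraries (median 10.0%), against 19.2% to 70.4% in sham-operated libraries (median 57.8%). Adgrg1, the adhesion receptor GPR56 of cytotoxic lymphocytes and other cells, had 20.2% to 54.9% of NM_152242 after CLP (median 35.6%), against 47.7% to 85.7% after sham (median 66.6%). Klf8, a Krüppel-like transcription factor, had 0% of XM_017602264 in each CLP-operated library, which allows up to 0.181%, against 0% to 100% in sham-operated libraries (median 37.1%). In Klf8 2 Sham libraries were also at 0%, and the gene averaged 166 ± 34.5 counts after CLP and 170 ± 23.3 counts in sham-operated libraries.

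Mettl9, a histidine methyltransferase, had 12.3% to 53.6% of XM_008759659 after CLP (median 45.5%), against 6.27% to 20.9% after sham (median 14.6%). Its share change was 40.3 points in CLP against Sham and 13.7 points under stimulation, where the test of the difference gave an adjusted p of 0.472. Gls2, the liver-type glutaminase, had 16.1% ± 8.21 of XM_039078388 after CLP against 39.2% ± 8.95 after sham. Srebf1, the regulator of fatty acid synthesis whose transcripts start from alternative promoters, had 71.9% ± 17.1 of NM_001276707 after CLP against 49.0% ± 13.5 after sham, with changes of 36.7 points in CLP against Sham and 9.20 points in CLP+VNS against Sham+VNS (interaction adjusted p = 0.48).

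In 12 gene lists on splicing, inflammation and lung structure, 0 to 2 genes each were called, to be read against the 2.05% of all genes tested, a rate at which lists of this length hold few calls. Counts by other tests are to be read against their own totals over all genes. Those were 369 genes with limma's diffSplice, 461 with DESeq2 and 132 with limma on log ratios, where edgeR called 185. Counts of changed totals in the lists are to be read against the 51.6% of all genes tested for usage. Among SR proteins and Clk kinases edgeR called 0 of 21 tested; 1 had an unadjusted p under 0.05, limma's diffSplice called 1, DESeq2 called 1 and limma on log ratios called 0. Of their totals, 9 were higher and 1 lower. Srsf2, an SR protein that regulates its own splicing, had 16.3% ± 2.31 of NM_001009720 in CLP-operated and 20.2% ± 2.80 in sham-operated libraries (gene adjusted p = 0.304). Among hnRNP proteins and tissue splicing regulators 1 of 42 was called (2.38%), with 6 totals higher and 12 lower. It was Tial1, an RNA-binding protein of stress granules, with 32.6% ± 2.79 of NM_001013193 after CLP against 25.0% ± 4.57 after sham (adjusted p = 0.0181), a call lost without Sham replicate 1 or 5 or Sham+VNS replicate 1 (adjusted p up to 0.0675).

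In Toll-like receptor, interleukin and NF-kappaB signalling 2 of 40 genes were called (5%, against 2.05% of all genes tested), and 29 totals were higher and 3 lower. Of the 40 genes limma's diffSplice called 1, DESeq2 4 and limma on log ratios 0. The genes called by edgeR are a receptor and its ligand. Il1rl1 encodes ST2, the receptor of interleukin-33, which exists in membrane and soluble forms, and NM_013037 held 1.91% to 36.8% of it after CLP (median 10.0%), against 0.836% to 4.10% after sham (median 2.09%; adjusted p = 0.000537). The gene was thinly covered, at 231 ± 62.2 counts in CLP-operated and 276 ± 82.7 in sham-operated libraries, and CLP replicate 3, at 1.91%, lay within the sham range. Il33, an alarmin stored in the nuclei of lung epithelial cells, had 4.61% ± 1.04 of XM_039084491 after CLP against 2.81% ± 0.733 after sham (adjusted p = 0.00221). Its total fell by 0.68 on the log2 scale (SE 0.07, adjusted p = 2.55e-07), while that transcript averaged 183 ± 39.9 counts in CLP-operated and 183 ± 40.1 in sham-operated libraries. The calls of both transcripts, in Il1rl1 and Il33, were lost with trended dispersions and with limma's diffSplice. That of Il33 was also lost with limma on log ratios.

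The other lists with a call had 1 or 2 members each called by edgeR, against 2.05% of all genes tested. Counts by the other tests stand against their own totals, given above. In the list of leukocyte surface receptors it was Cd36, the scavenger receptor of lipids (1 of 24, 4.17%; XM_039107196, 7.2% ± 1.61 after CLP against 3.71% ± 0.721 after sham). In apoptosis it was Mcl1, a survival factor of the Bcl-2 family (1 of 17, 5.88%; XM_039103018, 2.06% ± 0.402 after CLP against 1.36% ± 0.236 after sham), whose call was lost in 14 of 20 fits without 1 library (adjusted p up to 0.0879). Among epithelial splicing targets and junction genes it was Epb41l5, a scaffold of epithelial polarity (1 of 19, 5.26%; XM_039090672, 7.50% ± 1.67 after CLP against 3.51% ± 1.68 after sham). Actn1, which cross-links actin, and Mprip, which binds myosin phosphatase, were the called members among cytoskeleton genes (2 of 23, 8.70%; 5 by limma's diffSplice, 5 by DESeq2 and 1 by limma on log ratios). In the epithelial list the same tests called 4, 2 and 1, in the leukocyte receptor list 1, 3 and 1, and in the apoptosis list 0, 1 and 0. Among hnRNP proteins and tissue splicing regulators they called 1, 3 and 0. XM_039112993 of Actn1 was at 15.1% ± 2.32 after CLP against 21.8% ± 3.04 after sham, and XM_006246431 of Mprip at 8.80% ± 0.827 after CLP against 7.15% ± 1.01 after sham, a call lost without CLP+VNS replicate 1, Sham replicate 2 or Sham replicate 5 (adjusted p up to 0.0765).

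Hsd11b1 and Tsc22d3 were the called members among circadian and glucocorticoid genes (2 of 20, 10%, against 2.05% of all genes tested; 1, 2 and 2 by the other tests), and Eif4a2, a translation initiation helicase, among stress response genes (1 of 17, 5.88%; 2, 1 and 0 by the other tests; XM_039088293, 10.3% ± 1.84 after CLP against 7.99% ± 0.987 after sham). edgeR called 0 of 20 endothelial and growth factor genes (4 at an unadjusted p under 0.05; 2 by limma's diffSplice, 3 by DESeq2, 0 by limma on log ratios). Vegfa, the endothelial growth factor with well-known splice forms, came nearest, with 17.9% ± 1.67 of NM_001110336 after CLP against 14.5% ± 1.41 after sham (gene adjusted p = 0.0549). edgeR also called 0 of 14 extracellular matrix genes (1 at an unadjusted p under 0.05; 0, 1 and 0 by the other tests in that order) and 0 of 20 glucose and energy genes (2 at an unadjusted p under 0.05; 1, 0 and 0). The median largest share change in the 12 lists ran from 1.12 points in the stress response list to 3.31 points in the circadian and glucocorticoid list, against 3.00 points over all genes tested.

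A further 4 genes are given for their roles and were chosen after their values were seen. Olfm4, a granule protein of a subset of neutrophils, rose in total by 3.92 on the log2 scale (SE 0.30, adjusted p = 5.74e-09). Its transcript XM_008770863 held 0% to 2.04% in CLP-operated libraries (median 1.01%), against 11.3% to 74.2% in sham-operated libraries (median 35.6%), where the gene had only 97.1 ± 33.0 counts. Itgax, the integrin CD11c of dendritic cells and alveolar macrophages, had 35.0% ± 5.01 of XM_574569 after CLP against 19.2% ± 8.83 after sham, which on TPM was a change of 6.93 in place of 15.8 points. Clec9a, a receptor of cross-presenting dendritic cells, had 27.3% ± 5.55 of NM_001109354 after CLP against 43.9% ± 7.49 after sham. Aqp5, the water channel of alveolar type 1 cells, fell in total by 1.91 on the log2 scale (SE 0.15, adjusted p = 4.36e-09), with 16.9% ± 4.51 of XM_039078450 after CLP against 8.91% ± 2.31 after sham. Markers of alveolar type 1 cells, of which Aqp5 is one, were lower together, and their part was not tested. Of the 33 cell type marker genes that could be tested for usage, 1 was called, Aqp5, against 2.05% of all genes tested.

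The comparison was also made within each stimulation state, on separate sets of 10 libraries. Between CLP+VNS and Sham+VNS libraries 39 of 8276 genes were called (0.471%), and between CLP and Sham libraries 80 of 8262 (0.968%). These comparisons had 13 called genes in common, 33.3% of the first list and 16.2% of the second. Of the 208 transcripts called over all 20 libraries, 207 had a share change of the same sign in both, though they were chosen on those same libraries. An interaction of operation and stimulation was called in 15 genes (0.166%), none of them among the 40 genes named here, where the lowest interaction adjusted p was 0.472 for a transcript and 0.371 for a gene, both in Mettl9. For 20 of the named genes like direction with and without stimulation was a condition of choice, so the absence of calls was partly set in advance. The interaction count moved to 5 with a stricter filter, 31 with trended dispersions and 9 to 25 without 1 library. Without 1 of the 10 libraries the counts of 39 and 80 genes became 73 to 97 with stimulation and 117 to 140 without it. In those fits the low-count filter also asks for counts in fewer libraries, so the effect of a single library cannot be told apart from that of the filter, and with no filter and all 10 libraries the counts were 93 and 160.

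How many genes were called depended on the test. Of the 40 transcripts named by the rules or by choice, 10 were called in each fit on all 20 libraries, whatever the scaling, filter, dispersion or test, and in each of 20 fits without 1 library. These were in Mrpl14, Plcd1, Hsd11b1, Sytl2, Sbno2, Cp, Popdc2, Hyal2, Wbp1l and Mettl9. Trended dispersions ended 28 calls, and those 10 and the calls of Aoc1 and Klf8 were made under them. limma's diffSplice ended 12, of Aoc1, Eif4a2, Il1rl1, Il33, Itgax, Klf8, Mcl1, Mprip, Olfm4, Srgn, Tial1 and Tsc22d3. limma on log ratios ended 7, of Eif4a2, Epb41l5, Il33, Mcl1, Mprip, Srebf1 and Tial1, and leaving out the filter ended those of Mcl1 and Pdlim2. On the 10 stimulated libraries alone 12 of the named calls were made and 27 ended. On the 10 unstimulated libraries alone 17 were made and 22 ended.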

How the data were processed

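Poly(A)-selected, strand-specific libraries from 20 rat lungs were sequenced as pairs of reads, per the labels' protocols. The authors deposited estimated counts, TPM and FPKM per RefSeq transcript, and counts per gene. The submitters' processing notes name the assembly mRatBN7.2, and no source used here names an aligner or quantifier. Of non-zero transcript counts 16.3% are whole, so reads shared by transcripts were divided by an estimate, and how that division errs between similar transcripts is not measured by these files. Library totals of 13729654 to 14453188 counts set the precision, and a limit from a count of 0 covers counting error only.

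Deposited counts were rounded, filtered with filterByExpr (minimum count 10, which kept 38195 transcripts), scaled by TMM and fitted with edgeR 4.0.16 (R 4.3.3) by glmQLFit with transcript-wise dispersions, with operation and stimulation as additive terms (17 residual degrees of freedom). diffSpliceDGE tested each transcript's change against its gene's average change, and Simes' method joined transcripts to genes, with Benjamini-Hochberg adjustment over all genes or all transcripts and a threshold of 0.05. In a gene of 2 transcripts one can thus be called without the other. Gene totals were tested by edgeR's quasi-likelihood test. Shares were taken from unrounded counts, and all ± values are SDs. Effective length is count over FPKM and library size, where FPKM was at least 0.5. The script was tested on simulated data.

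Alternatives were other scalings and filters, a replicate block, no stimulation term, 1 library left out, limma 3.58.1 (diffSplice on voom weights), DESeq2 1.42.0, a gene-level F test and TPM shares. Trended dispersions and limma on log2 ratios (pseudocount 0.5) were added after the data were seen. The members, gene lists and naming rules were chosen with earlier results of these data known. Named were the 20 largest changes among called genes with at least 100 counts in every group, non-overlapping arms and like direction with and without stimulation, up to 12 called genes whose leading transcript differed, and called members of the lists. Where the text names a gene outside these rules it says so or gives the count it belongs to. The p-values set a difference between arms against the spread between these libraries, and the labels do not say how replicates were bred or housed. Gene IDs of the files were found in a RefSeq table of GRCr8 for 18800 of 19060 genes, used for names and transcript listing, with no coordinates taken from it.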

Additional observations from a re-analysis of the deposited data

Results flagged for a closer look

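In 8 of 155 groups of 5 libraries checked, 1 library stood apart from the other 4 by Dixon's criterion, and chance flags about 1 in 20 such groups. In CLP-operated groups these were CLP replicate 5 for XM_006244512 of Mrpl14 (7.48%, others 16.9% to 19.0%) and CLP+VNS replicate 1 for NM_012532 of Cp (58.8%, others 45.1% to 48.7%). In both genes the library lay farther from the sham range than its group did. In Sham+VNS libraries, replicate 2 had 26.2% of XM_006250473 of Hsd11b1 (others 35.2% to 37.8%) and replicate 1 had 1.77% of XM_039103018 of Mcl1 (others 1.02% to 1.22%). In Sham libraries, replicate 3 had 96.4% of XM_006256484 of Srgn (others 100%), replicate 2 had 3.82% of NM_001270689 of Fxyd5 (others 11.7% to 13.0%), and replicate 4 had 4.10% of NM_013037 of Il1rl1 (others 1.65% to 2.22%) and 62.6% of NM_001109354 of Clec9a (others 42.6% to 44.8%).

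In 15 genes the share change with stimulation differed from that without it (edgeR interaction, adjusted p under 0.05), a count that moved to 5 with a stricter filter and 31 with trended dispersions. In 11 of them 1 group or more had a mean share of 0. Differences are given as the change in CLP+VNS against Sham+VNS minus the change in CLP against Sham, in percentage points. Tnc, the matrix protein tenascin-C, differed by 45.1 points: XM_039109147 stood at 38.1% in CLP+VNS and 17.6% in Sham+VNS libraries, and at 1.53% in CLP and 26.1% in Sham libraries (adjusted p = 0.000835). Ripk1, a kinase of cell death signalling, differed by -8.38 points: XM_017600528 stood at 6.65% in CLP+VNS and 4.88% in Sham+VNS libraries, and at 10.1% in CLP and 0% in Sham libraries (adjusted p = 0.00229). Slc38a5, an amino acid transporter, differed by 40.2 points (adjusted p = 0.000563), with means of 41.2% in CLP+VNS and 79.3% in Sham+VNS libraries, and 0% in CLP and 78.2% in Sham libraries. Its lowest group mean was 36.8 counts of the gene. The difference was 16.7 points in Rif1, 12.1 in Egflam, 9.80 in Apbb1ip, 5.61 in Pphln1 and 2.62 in Akap17a, and -9.85 points in Fbxo46 and -6.46 in Ttc3. The difference was 46.0 points in LOC102556096, 40.9 in Fancc, 28.3 in Trim68 and 27.1 in Thg1l. Their lowest group means were 202.6 counts of the gene in LOC102556096, 70.6 in Fancc, 60.0 in Trim68 and 84.8 in Thg1l. Fancc, Trim68 and Thg1l had a mean share of 0% in CLP and in Sham+VNS libraries. In Kcnt2, which had a mean of 8.6 counts in its lowest group, the difference was 99.8 points.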

How the results depend on the processing

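The 185 genes, with 117 higher and 113 lower transcripts and 73 genes at 10 points or more, became 63 genes, 35, 39 and 29 with trended dispersions, 369, 265, 271 and 125 with limma's diffSplice, and 461, 390, 387 and 147 with DESeq2. Of the 185 genes, 22 had a called transcript that moved by 20 points or more. A gene-level F test called 373 genes. The causes of these differences were not tested. DESeq2 shared 163 of the 185 genes, limma's diffSplice 110 and trended dispersions 41. DESeq2's size factors (185 genes), total-count scaling (186), no stimulation term (184), no filter (167), a stricter filter (154) and limma on log ratios (132) stayed within 1.5 times. They shared 185, 184, 171, 144, 143 and 90 of the 185 genes in that order. Without 1 library, which also loosens the filter, the counts were 143 to 194 genes, 85 to 116 higher, 94 to 118 lower and 55 to 74 at 10 points or more, with 130 to 160 of the 185 genes shared.

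The 80 genes of CLP against Sham became 160 with no filter, 22 with trended dispersions and 117 to 140 without 1 library. The 39 genes of CLP+VNS against Sham+VNS became 93 with no filter, 24 with a stricter filter, 13 with trended dispersions and 73 to 97 without 1 library. The 15 interaction genes became 5 with a stricter filter, 31 with trended dispersions and 9 to 25 without 1 library.

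Same-numbered libraries were compared between CLP and Sham and between CLP+VNS and Sham+VNS. Their deviations in gene levels correlated at -0.0759 to 0.0492, so no pairing was seen there. Pairs across stimulation were not checked, and so few pairs cannot decide whether the numbers pair animals. The samples were treated as unpaired. With a replicate block 96 genes were called, 63 of them among the 185, 61 transcripts higher and 64 lower, with 42 genes at 10 points or more, 73 genes in CLP+VNS against Sham+VNS and 23 interactions. The block ended 14 of the 40 named calls. No named share change reversed under any alternative, but most alternatives could not have reversed one. Fits on all libraries used the same shares, whatever the scaling, filter, dispersion or test. Only TPM shares, the separate stimulated and unstimulated sets and leaving out a library could change the sign. In those separate sets, like direction was a condition of choice for part of the named genes. The stricter filter left out the named transcripts of Nnat, Il1rl1 and Olfm4. Klf8, Il1rl1 and Olfm4 had few counts, and the division of reads between similar transcripts was not measured.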
